A study of Homo sapiens with 8 samples.

Results

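Nucleolar ribosome assembly factors were examined in A549, an established cell line from a human lung adenocarcinoma, after overexpression of MGA and after knockdown of MYC. The 57 members were listed by name and taken as the rows of the deposited gene tables with those symbols, 57 of 57820 genes in all, and each name matched exactly 1 row. They were ordered by the step of ribosome assembly in which they act: 6 nucleolar phosphoproteins and factors of ribosomal DNA transcription, 7 core proteins of small nucleolar ribonucleoproteins (snoRNPs), 21 factors of the small subunit (SSU) processome and pre-small subunit, and 23 factors of large subunit assembly.

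Ribosomes are built in the nucleolus, where RNA polymerase I makes a long precursor of the ribosomal RNAs. The SSU processome folds and cuts the part that becomes 18S rRNA, box C/D snoRNPs guide methylation and box H/ACA snoRNPs guide pseudouridylation, and separate factors assemble and export the large subunit. MYC binds DNA as a dimer with MAX, most strongly at the E-box CACGTG, and genes of ribosome assembly are among its best known targets; MGA is another partner of MAX and is known as a repressor.

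The study measured poly(A)-selected RNA from whole cultures in 8 libraries, 2 (A and B) in each of 4 groups. The controls of the first experiment carried an empty vector (labelled Empty) and the treated cells an MGA overexpression vector (labelled MGA). In the second experiment the controls received siNC, a negative control siRNA, and the treated cells received siMYC. All groups were A549 cells; the promoter of the vector, whether the cells were a clone or a pool, the siRNA sequences and the time of harvest were not among the labels. The comparisons ask how these genes responded to more MGA and to less MYC, and the pair of comparisons shares no library.

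Depth was low, with 820428 to 2129006 expected counts per library, and the median member had 70 to 188 counts in a library. The manipulated genes followed the labels: the normalised read count of MGA (CPM, relative to library size after TMM scaling) was 102455 and 103732 in MGA against 122 and 81.5 in Empty, and that of MYC was 48.3 and 41.1 CPM in siMYC against 219 and 183 in siNC. In the first experiment MYC had 296 and 347 CPM in MGA, and 234 and 241 in Empty. Reads of MGA made up 9.54% and 9.68% of the counts of the MGA libraries, and mitochondrially encoded genes 2.73% and 2.74% there against 3.97% and 3.86% in Empty. All 9 epithelial and A549 markers were detected, with a summed level of 6036 to 18605 TPM (the deposited unit that corrects for gene length), and the 3 endothelial markers found were at 0 in every library. Of the leukocyte markers reported here, PTPRC and CD3E were at 0 throughout, CD14 stood at 3.02 to 12.08 TPM with its highest value in siMYC B, and LYZ at 0 to 5.97 TPM. The 5 fibroblast markers summed to 87.0 and 87.7 TPM in siMYC and to 8.48 to 24.1 TPM in the other libraries; nearly all of this was COL1A1 (84.85 and 87.2 TPM in siMYC, 7.85 and 19.79 in siNC), and DCN was at 0 throughout. The part of these differences in depth, composition and markers in the results on the assembly factors was not tested.

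All 57 members were detected in every library and passed the filter on low counts. Per length, NPM1 (nucleophosmin, a pentameric chaperone of the outer nucleolus) was the most abundant, with a mean of 2687 TPM over the 8 libraries. It was followed by NCL (nucleolin, an RNA-binding phosphoprotein) at 562 TPM, FBL (fibrillarin, the methyltransferase of box C/D snoRNPs) at 496, NOP56 (a box C/D scaffold) at 445, NOP10 (a small box H/ACA core protein) at 337 and NHP2 (another box H/ACA core protein) at 242. The lowest was URB2, a large factor of early pre-large subunits, at 11.5 TPM, and the median member had 58.7 TPM. NPM1 and NCL together held 41.3% to 48.5% of the members' summed TPM in the control libraries, 33.3% and 36% in MGA, and 38.9% and 38.6% in siMYC. Together the 57 genes took 0.841% and 0.843% of all expected counts in Empty, 0.625% and 0.639% in MGA, 1.03% and 1.05% in siNC, and 0.424% and 0.444% in siMYC. With the reads of MGA itself left out of the total, the share in the MGA libraries was 0.691% and 0.707%, still below both Empty libraries. In whole cultures, fewer cells of a type and less RNA per cell cannot be told apart.

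With siMYC the members fell together. Of the 57, 54 were lower and 0 were higher (adjusted p under 0.05 in edgeR's quasi-likelihood test), where 20% of the 11218 genes tested were lower and 19.0% higher. At an unadjusted p under 0.05, 55 members were lower and 0 higher, against 2652 and 2614 of the 11218 genes tested. No other setting called a member higher. All 57 log2 fold changes were below 0, from -2.10 to -0.25, with a median of -1.25, which leaves 42.0% of the siNC level; the median over all genes tested was 0.01. The fall reached a log2 fold change of -1 or below in 43 members, against 5.13% of the genes tested, and in 54 members both siMYC libraries lay below both siNC libraries, against 33.6%. With siMYC A left out, EMG1 and NIP7 lost their calls, at log2 fold changes of -0.50 and -0.46 (adjusted p = 0.16 and 0.07 in edgeR); without siNC B, NOC4L and RRS1 did, at -0.56 and -0.52 (adjusted p = 0.085 and 0.052). Standard errors of the members' log2 fold changes ranged from 0.07 (NPM1) to 0.26 (EMG1). DESeq2 called 45 members lower, where 9.53% of the 8804 genes with an adjusted p were lower. On log2(TPM + 1), limma called 34 lower, where 4.78% of the genes tested were lower.

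**Figure D1:**
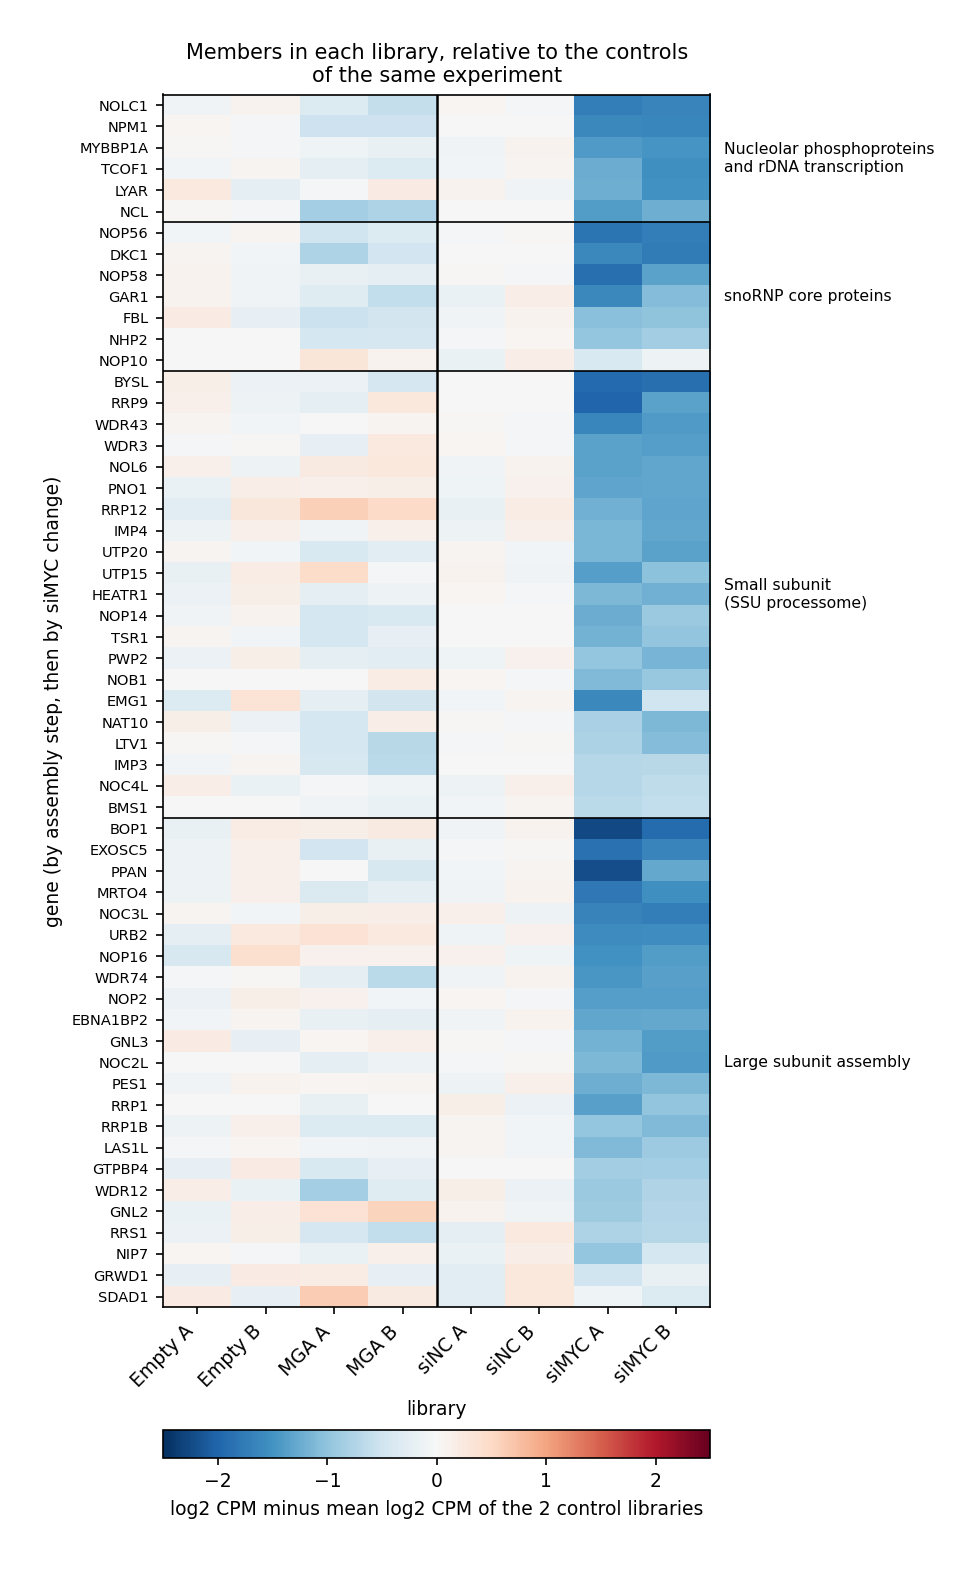
Normalised expression of each of the 57 members (rows, by assembly step) in the 8 libraries (columns), as log2 CPM minus the mean log2 CPM of the 2 control libraries of the same experiment. The siMYC columns are blue in nearly every row, while the MGA columns are pale, with NCL and DKC1 among the bluest and RRP12 among the reddest.

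Among the nucleolar phosphoproteins and factors of ribosomal DNA transcription, 6 of 6 fell with siMYC, with a median log2 fold change of -1.41. NPM1 stood at 2025 and 2005 CPM in siNC and at 659 and 651 in siMYC. The libraries of each group lay close to each other and far from the other group, with a log2 fold change of -1.62 (SE 0.07; edgeR gave an adjusted p of 6.8e-15). NOLC1 (Nopp140, a phosphoprotein that binds snoRNPs) went from 449 and 419 CPM to 131 and 139, a log2 fold change of -1.69 (SE 0.10). NCL went from 1488 and 1517 CPM to 574 and 646 (-1.30, SE 0.08). In each of these 3 genes the groups did not overlap. TCOF1 (treacle, a scaffold for RNA polymerase I factors), MYBBP1A (which binds RNA polymerase I complexes) and the zinc finger protein LYAR changed by -1.37, -1.45 and -1.32 on the log2 scale.

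Of the snoRNP core proteins, 6 of 7 fell, with a median of -1.38. The box C/D scaffold NOP56 stood at 385 and 404 CPM in siNC and at 111 and 119.7 in siMYC (log2 fold change -1.78, SE 0.10, edgeR's adjusted p = 4.4e-13). Its partner NOP58 went from 201 and 194 CPM to 53.8 and 77.9 (-1.61, SE 0.14), and FBL from 435 and 492 to 224 and 231 (-1.03, SE 0.10). The 3 box C/D proteins thus fell without overlap between groups, to 32.8% of the siNC level for NOP58 and to 49.0% for FBL. DKC1 (dyskerin, the pseudouridine synthase of box H/ACA snoRNPs) stood at 262 and 267 CPM in siNC and at 86.4 and 79.2 in siMYC (-1.67, SE 0.12). The other box H/ACA proteins were GAR1 at a log2 fold change of -1.38, NHP2 at -0.93 and NOP10 at -0.28. NOP10 stood at 79.3 and 98.6 CPM in siNC and at 68.0 and 81.0 in siMYC, so its groups overlapped, and it did not pass the test (SE 0.14, edgeR's adjusted p = 0.13).

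All 21 small subunit factors fell, with a median of -1.15 and a range of -1.91 to -0.65. BYSL (bystin, a factor of the pre-small subunit) was at the low end, at 40.7 and 40.8 CPM in siNC and 10.6 and 11 in siMYC (-1.91, SE 0.24). WDR43, a subunit of the UTP-A complex that binds the nascent precursor first, went from 229 and 221 CPM to 73.1 and 84.1 (-1.53, SE 0.12, edgeR's adjusted p = 8.2e-11). In both genes the groups were far apart. The other UTP-A subunits, UTP15 and HEATR1, changed by -1.20 and -1.15, and the UTP-B subunits WDR3 and PWP2 by -1.35 and -1.06. NOL6 of the UTP-C part went from 126 and 141 CPM to 52.9 and 54.0 (-1.32, SE 0.14), and TSR1, a GTPase-like factor of the late pre-small subunit, from 251 and 255 to 112 and 128 (-1.08, SE 0.11). RRP9, which binds the U3 snoRNA, changed by -1.66, and the Mpp10 complex proteins IMP4 and IMP3 by -1.22 and -0.71. IMP3 went from 80.0 and 80.5 CPM to 48.7 and 49.7, without overlap. The enzymes that modify or cut 18S rRNA changed by like amounts: EMG1 by -1.02, NAT10 (the cytidine acetyltransferase) by -0.93 and NOB1 (the endonuclease of the 3' end) by -1.03. EMG1 differed most between replicates, at 12.4 and 27.0 CPM in siMYC, a coefficient of variation of 52.4%. PNO1, the partner of NOB1, changed by -1.32, RRP12 by -1.28, the HEAT-repeat factor UTP20 by -1.22 and NOP14 by -1.10. LTV1 changed by -0.91, and the smallest falls of this step, beside that of IMP3, were those of NOC4L (-0.69) and the GTPase BMS1 (-0.65).

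Among the large subunit factors, 21 of 23 fell, with a median of -1.25. BOP1, a subunit of the PeBoW complex, fell most of all members: it stood at 189 and 211 CPM in siNC and at 41.8 and 52.8 in siMYC, 23.3% of the siNC level (log2 fold change -2.10, SE 0.14, edgeR's adjusted p = 5.1e-12). The other PeBoW subunits changed less, PES1 (pescadillo) by -1.18 and WDR12 by -0.84. WDR12 went from 79.3 and 64.1 CPM to 37.7 and 42.3. MRTO4, the placeholder for the P0 stalk protein, went from 105 and 120.1 CPM to 32.6 and 38.7 (-1.68, SE 0.15), and NOP2, a cytosine methyltransferase of 28S rRNA, from 154 and 142 to 57 and 57.1 (-1.37, SE 0.13). URB2 went from 58.6 and 67.1 CPM to 21.1 and 21.5 (-1.56, SE 0.19). In all of these genes both siMYC libraries lay below both siNC libraries in CPM. In TPM the groups of WDR12 overlapped, at 77.07 and 39.74 in siNC and 25.21 and 55.78 in siMYC. Its call was lost with DESeq2 and on both TPM scales. The exosome subunit EXOSC5 changed by -1.76, PPAN by -1.73 and NOC3L by -1.68, while the GTPases GNL3 (nucleostemin), GTPBP4 and GNL2 changed by -1.28, -0.86 and -0.81. The factors of early pre-large subunits NOP16, EBNA1BP2 and NIP7 changed by -1.45, -1.29 and -0.72, WDR74 by -1.42, NOC2L (the partner of NOC3L) by -1.25, and the paralogs RRP1 and RRP1B by -1.18 and -1.02. LAS1L, the endonuclease that cuts the second internal spacer, changed by -1.01, and RRS1, which brings the 5S particle to the pre-large subunit, by -0.79. All of these passed edgeR's test. The members that did not pass were GRWD1, a chaperone of the ribosomal protein L3, and SDAD1, a factor of pre-large subunit export. GRWD1 stood at 85 and 124 CPM in siNC and at 72.6 and 90.8 in siMYC (-0.39, SE 0.16, edgeR's adjusted p = 0.062), with overlap. SDAD1 stood at 20.7 and 29.7 CPM against 23.0 and 19.6 (-0.25, SE 0.24, adjusted p = 0.44), also with overlap. Its value was 0.04 without siNC B.

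**Figure D2:**
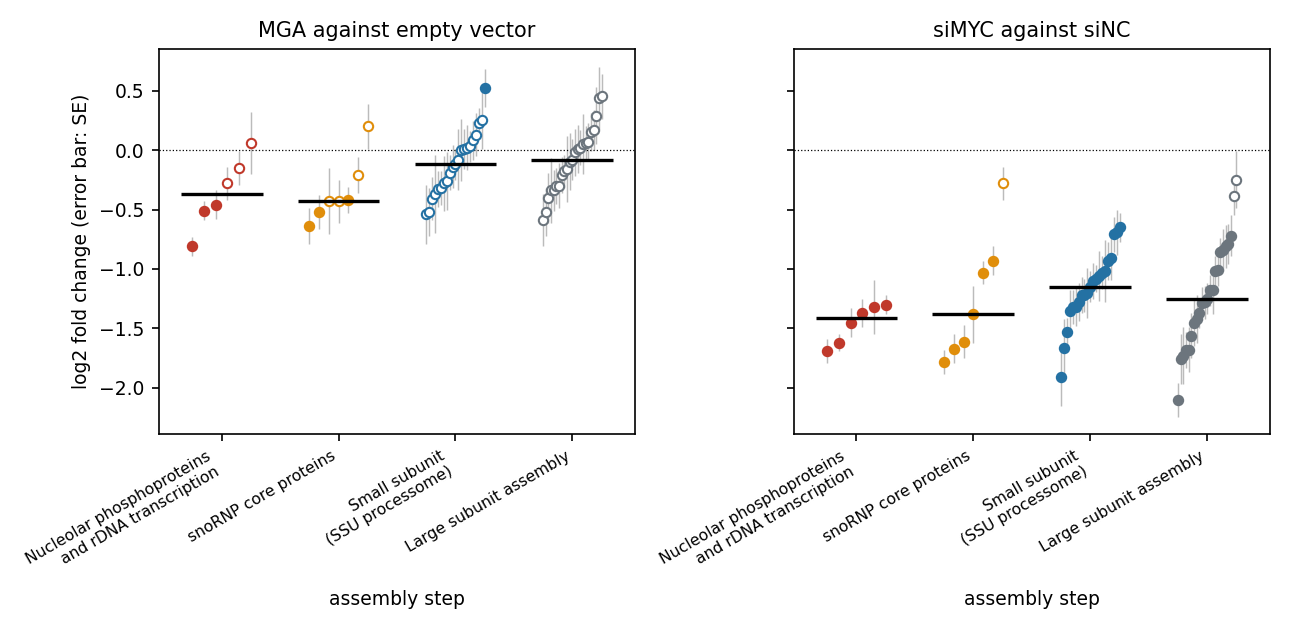
Log2 fold change of each member (points, with SE) by assembly step for MGA against Empty (left) and siMYC against siNC (right). Filled points passed an adjusted p of 0.05 in edgeR, open points did not, and black lines are medians: on the right they lie between -1.41 and -1.15, on the left between -0.43 and -0.08.

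Promoter sequences were examined because MYC, MAX and MGA dimers are known to bind the E-box and the members fell together with siMYC. RefSeq promoters (build GRCh38.p14, 250 bases before to 50 after the annotated start) were matched by symbol for 49 of the 57 members and searched for CACGTG, which reads the same on both strands. BOP1, RRS1, RRP12, TCOF1, RRP1B, NOP58, NOLC1 and URB2 had no entry. The motif was found in 25 of 49 members (51%), against 12.9% of 8370 matched genes that were tested and 8.77% of all 27305 genes with promoters of this length. By step it was in 2 of 4 nucleolar phosphoproteins and ribosomal DNA transcription factors, 3 of 6 snoRNP proteins, 11 of 20 small subunit factors and 9 of 19 large subunit factors. Mean GC content was 63.0% in the members' promoters and 64.9% in those of the tested genes, and the variant CACGCG, searched on both strands, was in 26.5% and 23.3%. The 25 genes held 29 matches, of which 20 (69.0%) began between 20 bases before and 30 bases after the start, against 16.7% of the 1291 matches in other tested genes. This window was chosen after the positions had been seen. In the members, a match seen from several annotated starts of a gene was counted a single time, but in other genes for each start. The shares of matches by position were thus not measured alike. A match is a description of the sequence and does not show that a factor binds there.

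The windows of the member with the smallest siMYC p in each step among those with a match are shown, from 60 bases before to 30 after the start or as 30 bases around the motif, 5' to 3' on the gene's strand, with CACGTG in capitals. They lie at chr2:28894607-28894696 (plus strand; motif 4 to 9 bases into the gene) for WDR43, chr1:19251745-19251834 (plus strand; 15 to 20) for MRTO4, chr19:39846350-39846439 (minus strand; 7 to 12) for FBL and chr17:4555340-4555369 (minus strand; 28 to 33) for MYBBP1A.
WDR43: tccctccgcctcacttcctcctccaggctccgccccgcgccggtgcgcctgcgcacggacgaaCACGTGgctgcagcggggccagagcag
MRTO4: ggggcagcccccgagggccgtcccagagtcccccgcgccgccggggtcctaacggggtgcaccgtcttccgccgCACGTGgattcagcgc
FBL: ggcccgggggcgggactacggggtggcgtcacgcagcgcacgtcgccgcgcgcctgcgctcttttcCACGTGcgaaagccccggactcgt
MYBBP1A: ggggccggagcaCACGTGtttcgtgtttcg

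Further short windows were picked only from members with a match beginning between 20 bases before and 30 bases after the start. The like place of the motif in them was thus fixed by the choice. EXOSC5 and NOP10 each held another match further upstream, which is not shown. The windows shown are those of members with large falls and of NOP10, which did not pass the test with siMYC. They lie at chr6:41921515-41921544 (plus strand; motif 29 to 34 bases into the gene) for BYSL, chr19:41397328-41397357 (minus strand; 15 to 20) for EXOSC5, chr10:94362903-94362932 (minus strand; 20 to 25) for NOC3L and chr15:34343130-34343159 (minus strand; from 11 to 6 bases before the start) for NOP10.
BYSL: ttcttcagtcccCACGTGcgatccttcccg
EXOSC5: caactgcagccgCACGTGggctcggcgcga
NOC3L: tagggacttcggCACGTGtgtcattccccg
NOP10: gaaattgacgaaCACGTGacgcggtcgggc

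NCL and NPM1, the most abundant members and the ones with the smallest p with MGA, had no CACGTG in their windows. Their last 90 bases before the start are shown, at chr2:231464485-231464574 (minus strand) for NCL and chr5:171387759-171387848 (plus strand) for NPM1, with a CACGCG of NPM1, 77 bases before the start, in capitals. The windows of NPM1 held further matches of this variant, which are not shown.
NCL: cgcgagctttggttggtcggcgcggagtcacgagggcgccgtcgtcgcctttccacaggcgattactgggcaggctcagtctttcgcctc
NPM1: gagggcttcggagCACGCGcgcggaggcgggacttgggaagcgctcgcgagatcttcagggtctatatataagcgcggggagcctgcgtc

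With siMYC the 25 members with CACGTG had a median log2 fold change of -1.29 and 23 were lower, and the 24 matched members without it had a median of -1.12 and 23 were lower. The members therefore fell with and without the motif. Among tested genes that are no members, 23.9% of those with the motif and 19.5% of those without it were lower with siMYC, with medians of -0.04 and 0.02. With MGA the median was 0.00 in the 25 members with the motif, of which 1 was lower, and -0.18 in the 24 without it, of which 4 were lower. Among tested genes that are no members, 6.61% of those with the motif and 3.67% of those without it were lower with MGA, the opposite order.

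**Figure D3:**
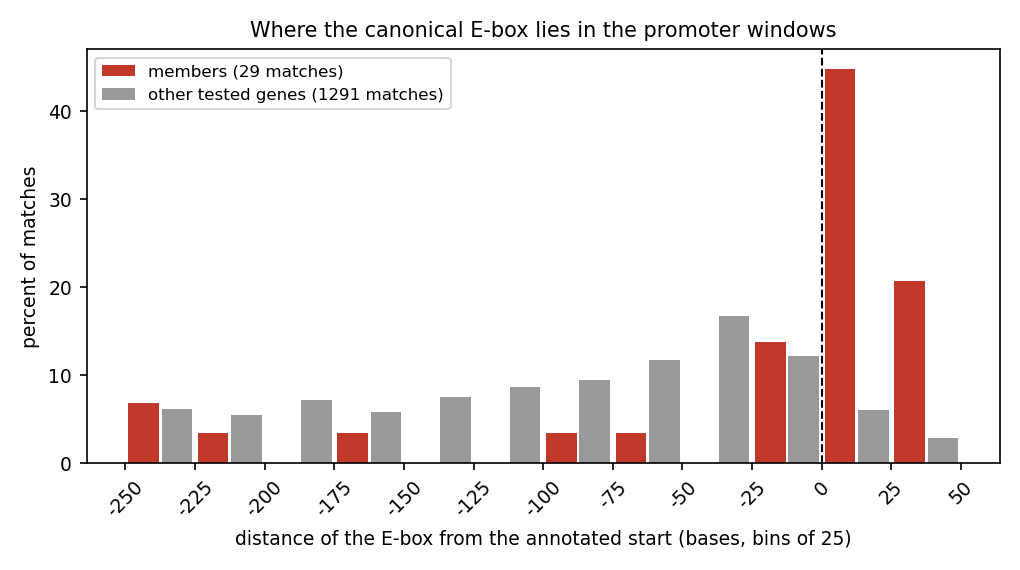
Share of CACGTG matches (percent, y axis) by distance from the annotated start in bins of 25 bases (x axis), for 29 matches in members (red) and 1291 in other tested genes (grey). The bin from 0 to 25 bases after the start holds 44.8% of the members' matches and 6.04% of the others. Matches seen from several starts of a gene were counted a single time in members and for each start in other genes.

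With MGA most members did not change detectably. Of the 57, 6 were lower, 1 was higher and 50 did not pass the test, where 4.0% of all genes tested were lower and 4.96% higher. The split of all calls depends on scaling: 44.7% of the genes called were lower with TMM, 61.9% with upper-quartile size factors and 73.2% when only library size was used, where the log2 fold change of the median gene was -0.116. The members' median log2 fold change was -0.16, against 0.01 for all genes. In 28 members both MGA libraries lay below both Empty libraries (25% of all genes did), and in 7 both lay above (27.6% of all genes did).

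The 6 lower members were nucleolar phosphoproteins (3 of 6) and snoRNP core proteins (3 of 7). NCL stood at 1269 and 1226 CPM in Empty and at 689 and 734 in MGA, without overlap (log2 fold change -0.81, SE 0.08, edgeR's adjusted p = 2.2e-07). NPM1 stood at 1333 and 1256 CPM in Empty and at 905 and 909 in MGA (-0.51, SE 0.08, edgeR's adjusted p = 5.2e-05). NOLC1 went from 296 and 333 CPM to 247 and 207 (-0.46, SE 0.12, adjusted p = 0.011). In each of these the groups did not overlap, and the gap was narrowest in NOLC1. Among the snoRNP proteins, DKC1 stood at 164 and 149 CPM in Empty and at 91.2 and 112 in MGA (-0.64, SE 0.15, edgeR's adjusted p = 0.006). NOP56 went from 346 and 381 CPM to 258 and 287 (-0.42, SE 0.11, adjusted p = 0.013), and FBL from 245 and 183 to 145 and 154 (-0.52, SE 0.14, adjusted p = 0.016). None of these overlapped in CPM, though the Empty values of FBL differed by more than its distance to MGA. In TPM the groups of DKC1 overlapped, at 123.14 and 89.09 in Empty and 62.37 and 93.19 in MGA. NOP58 stood at 184 and 164 CPM against 152 and 148 (-0.21, SE 0.15, adjusted p = 0.43) and NOP10 at 64.8 in both Empty libraries against 79.4 and 68.9 (0.20, SE 0.19, adjusted p = 0.58).

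RRP12, a HEAT-repeat export factor of pre-ribosomes counted among the small subunit factors, was higher: it stood at 103 and 152 CPM in Empty and at 189.8 and 175 in MGA (log2 fold change 0.52, SE 0.16, edgeR's adjusted p = 0.039). Of the 21 small subunit factors 0 were lower, with 6 (28.6%) at an unadjusted p under 0.05 in either direction, and of the 23 large subunit factors 0 were called, with 4 (17.4%) at such a p. These shares lay near the 22.3% of all genes tested in either direction. By direction, 5 small subunit factors were lower and 1 higher at such a p, and 3 large subunit factors lower and 1 higher. Over all 57 members 16 were lower and 2 higher at such a p, against 1151 and 1348 of the 11218 genes tested. Their medians were -0.12 and -0.08. With library sizes alone, 3 of 21 small subunit and 2 of 23 large subunit factors were lower, where 7.32% of all genes tested were lower. With the overexpression experiment fitted alone, 2 of 23 large subunit factors were lower and 1 small subunit factor was higher. There 6.81% of 9660 genes tested were lower. Just outside the threshold lay WDR12, at 76.4 and 60.0 CPM in Empty and 37.4 and 54.9 in MGA (-0.59, SE 0.22, adjusted p = 0.098), and IMP3, at 62.5 and 68.4 against 49.3 and 40.9 (-0.52, SE 0.20, adjusted p = 0.11). Just inside it lay FBL and RRP12.

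The other members described in every library did not pass the test with MGA. BOP1 stood at 78.7 and 103 CPM in Empty and at 99.4 and 105 in MGA (0.17, SE 0.17), WDR43 at 177 and 159 against 168 and 176 (0.03, SE 0.13), and NOP2 at 119 and 145 against 141 and 125 (0.02, SE 0.15). The sign of these 3 small values changed under other settings. On log2(TPM + 1) that of WDR43 was 0.64 (adjusted p = 0.2 in limma), with 89.8 and 84.1 TPM in Empty and 113 and 163 in MGA. NOL6 stood at 242 and 200.3 CPM against 257 and 263 (0.23, SE 0.12, adjusted p = 0.26), TSR1 at 186 and 168 against 131 and 154 (-0.32, SE 0.14, adjusted p = 0.15) and MRTO4 at 70.6 and 85.1 against 60.2 and 66.6 (-0.30, SE 0.19, adjusted p = 0.37). URB2 stood at 30.1 and 42.0 against 45.6 and 42.1 CPM (0.29, SE 0.24), SDAD1 at 37 and 27.6 against 49.3 and 37.4 (0.44, SE 0.26), and GRWD1 at 91.5 and 121 against 120.4 and 91.1 (0.01, SE 0.20).

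**Figure D4:**
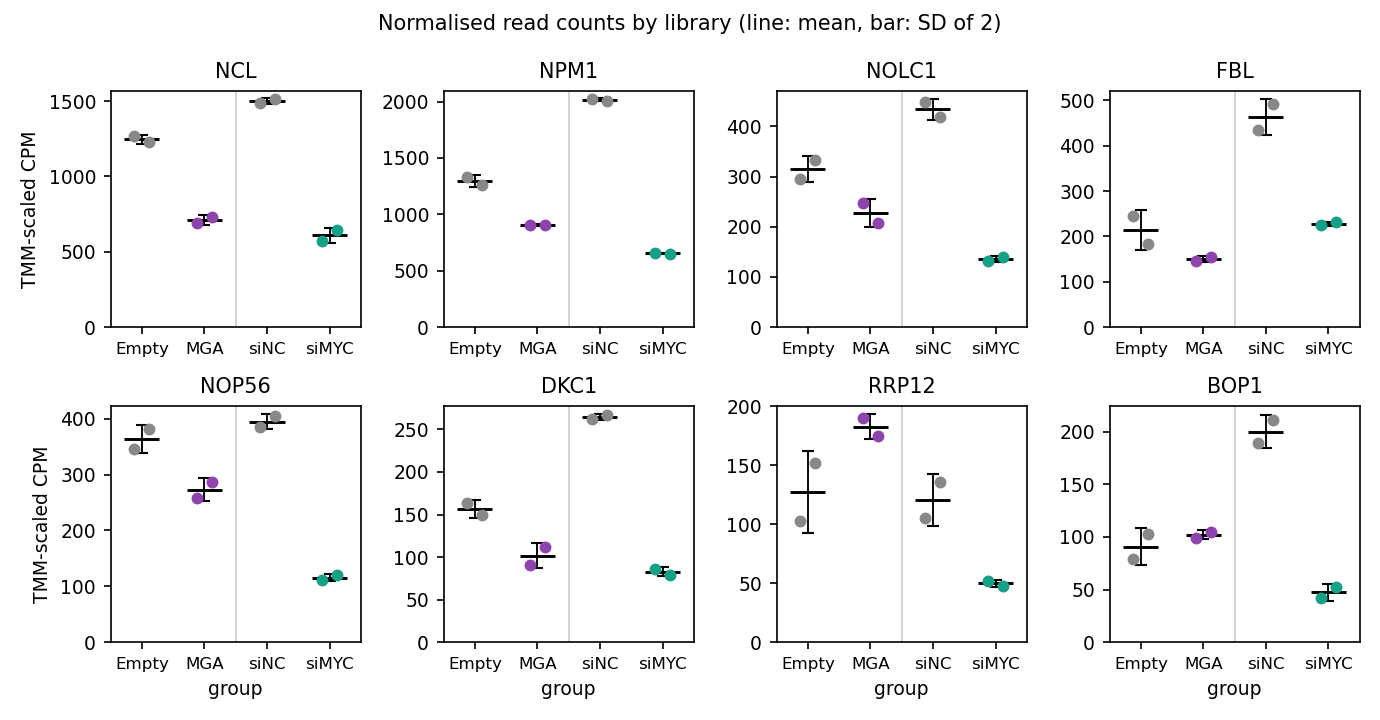
Normalised read counts (TMM-scaled CPM, y axis from 0) of 8 members in each library (points) with the mean and SD of 2. NCL and NPM1 are lower in MGA than in Empty and lower in siMYC than in siNC, while BOP1 is lower in siMYC (41.8 and 52.8) and overlaps in MGA.

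The 6 members lower with MGA were abundant, with a median of 339 CPM against 81.4 for the other 51, and the median standard error of their log2 fold changes was 0.11 against 0.18. Of the 10 members with the highest CPM, 5 were among the 6 and 9 had a negative log2 fold change, with a median of -0.37; the other 47 had a median of -0.10. The part of depth in which members passed was not tested. NCL kept its call in all 19 alternative settings and NPM1 lost it only on TPM. DKC1, NOLC1, NOP56 and FBL each lost the call with DESeq2, on TPM and without some single library. DKC1 lost it without Empty A or MGA A, NOLC1 without Empty B or MGA B, NOP56 without Empty B or MGA A, and FBL without Empty A, MGA A or MGA B. RRP12 lost it in 8 settings, among them upper-quartile size factors, library sizes alone and the fits without Empty A, MGA A or MGA B. Fewer of all genes tested passed, too, with an Empty or MGA library left out. The members' median log2 fold change was -0.18 without Empty A, -0.12 without Empty B, -0.18 without MGA A and -0.19 without MGA B. DESeq2 gave an adjusted p for 41 members and called 2 lower, where 3.41% of the 4724 genes with such a p were lower. On log2(TPM + 1), limma called 1 lower, where 0.446% of the genes tested were lower. There 12 members had an unadjusted p under 0.05, and the share of all genes at that p was not computed.

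The difference between the responses was tested as an interaction, the MGA log2 fold change minus that of siMYC, so that a positive value means a larger fall with siMYC. It was positive in all 57 members, with a median of 1.09, and 44 members were higher and 0 lower in edgeR's test, where 10.3% of all genes were higher and 8.22% lower. At an unadjusted p under 0.05, 48 members were higher and 0 lower, against 1898 and 1552 of the 11218 genes tested. No other setting called a member lower. DESeq2, which gave an adjusted p for 47 members, called 25 higher, against 338 of the 5948 genes with such a p. On log2(TPM + 1), limma called 14 higher, against 152 of 11218 genes. All 6 nucleolar phosphoproteins and ribosomal DNA transcription factors, 4 of 7 snoRNP proteins, 16 of 21 small subunit and 18 of 23 large subunit factors differed. NPM1 (1.11, SE 0.11, edgeR's adjusted p = 2.2e-08), BOP1 (2.27, SE 0.22, adjusted p = 3.5e-08) and NOP56 (1.36, SE 0.15, adjusted p = 2.5e-07) had the smallest p. At the other end stood IMP3 (0.18, SE 0.25, adjusted p = 0.67), WDR12 (0.25, SE 0.29, adjusted p = 0.61) and RRS1 (0.27, SE 0.27, adjusted p = 0.54), whose changes with MGA and siMYC were alike in size within their errors, though the errors leave room for a difference.

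NCL was the only one of the 6 members lower with MGA whose interaction changed sign with the unit. On counts its fall was larger with siMYC (interaction 0.49, SE 0.11, edgeR's adjusted p = 0.0031). On log2(TPM + 1) the interaction was -0.24 (adjusted p = 0.47 in limma), with changes of -1.29 with MGA and -1.05 with siMYC. In the deposited TPM, NCL stood at 748 and 684 in Empty, 264 and 322 in MGA, 831 and 837 in siNC, and 374 and 433 in siMYC. The cause of the disagreement between units was not tested.

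**Figure D5:**
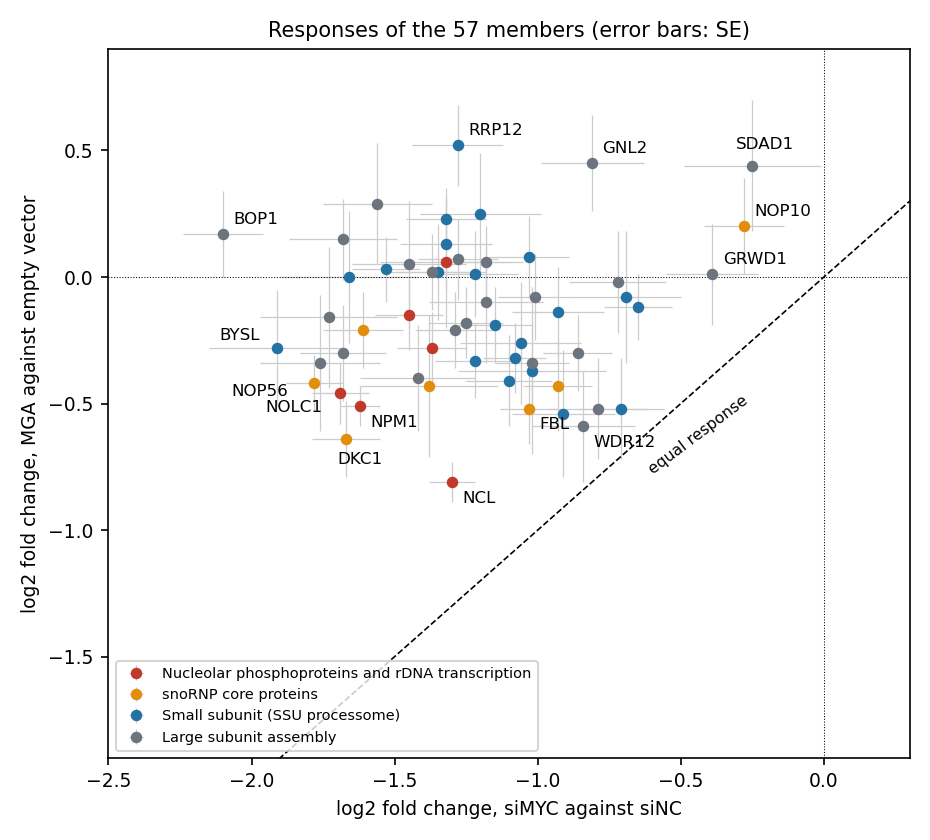
Log2 fold change with MGA (y axis) against that with siMYC (x axis) for the 57 members, with SE bars and colours by assembly step; the dashed line marks equal responses. All points lie above the line, and NCL is lowest on the y axis, at -0.81.

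The order of the members differed between the comparisons. Across the 57 genes the Pearson correlation of the log2 fold changes with MGA and with siMYC was 0.10 and Spearman's rho 0.02. Over the 11217 tested genes other than MGA itself, the members included, these were 0.11 and 0.16. Genes are not independent replicates, and these values describe these libraries. BOP1, which fell most with siMYC, stood at 0.17 with MGA, while NCL, at the low end with MGA, stood near the middle with siMYC. Of the 57 members, 6 were lower in both comparisons, against 214 of the 11218 genes tested (1.91%). These were all 6 members lower with MGA, while 214 of the 449 genes lower with MGA were also lower with siMYC. Since 54 of the 57 members were lower with siMYC, an overlap of 6 of 6 was largely given by that count.

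Other genes of the pathway are given from lists of known members. Of 96 tested other ribosome assembly factors (97 listed), 75 were lower and 0 higher with siMYC, with a median of -0.75. DDX21, a nucleolar RNA helicase, changed by -1.75 (SE 0.09), RSL1D1 by -1.53 and PDCD11, a large factor of the SSU processome, by -1.54. With MGA, 1 of the 96 (1.04%) was lower and 2 higher, with a median of -0.01, where 4.0% of all genes tested were lower and 4.96% higher. The genes called were PELP1 at -0.58 (adjusted p = 0.018 in edgeR), SBDS, which helps to release a late assembly factor, at 0.70 (adjusted p = 0.0037) and EFTUD1 at 0.60 (adjusted p = 0.04). The calls of PELP1 and SBDS were lost in 5 settings each and that of EFTUD1 in 8, including single libraries left out.

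Of the 78 cytosolic ribosomal proteins, 77 were lower and 0 higher with siMYC, with a median of -0.65, a smaller shift than the -1.25 of the members. RPS2, RPS3 and RPS6 changed by -1.10, -1.01 and -0.81. With MGA 4 of the 78 (5.13%) were lower, near the 4.0% of all genes, with a median of -0.08. RPL10 stood at -0.47 (adjusted p = 0.00039 in edgeR), RPL3 at -0.36 and RPL7A at -0.36. The calls of RPL3 and RPL7A were lost in 5 settings each, among them the fits without Empty B, MGA A or MGA B, and that of RPL10 only on TPM. Of 15 genes of RNA polymerase I transcription, 9 were lower with siMYC, with a median of -0.82, among them the polymerase subunits CD3EAP (-2.00) and POLR1B (-1.66) and the initiation factor RRN3 (-1.17). With MGA 0 of the 15 passed the test, and the median was 0.11. Of these 15, 2 (13.3%) had an unadjusted p under 0.05, against 22.3% of all genes tested. POLR1B, at 97.2 and 73.2 CPM in Empty and 54.7 and 57.2 in MGA, was nearest to the threshold (-0.61, SE 0.20, adjusted p = 0.06) and passed in 8 of 19 alternative settings. CACGTG was in 30.7% of the matched promoters of the other assembly factors, in 6.45% of those of the ribosomal proteins and in 0 of 11 of the polymerase I genes, while the members stood at 51%.

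Replicates of the members lay close together. The median coefficient of variation of CPM between libraries A and B was 11.7% in Empty, 7.57% in MGA, 6.87% in siNC and 7.93% in siMYC, and the highest were NOP16 in Empty (38.2%), NAT10 in MGA (29.8%), GRWD1 in siNC (26.5%) and EMG1 in siMYC. Some members have near-identical copies or overlapping gene models, so the division of their reads is uncertain: rows of copies held 16.3% of the joint counts of BMS1, 7.62% for SDAD1, 5.6% for the read-through model of PPAN and 0.212% for NPM1. Adding the copies to the members left the numbers called at 7, 54 and 44. NOP14 has an antisense gene, and whether counting used strand is not stated.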

How the data were processed

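The analysis began from the 8 gene tables that the authors deposited, a table for each library. The submitters' processing notes name STAR, RSEM and the build hg19; versions and annotation: not given in the sources used here. Per the file headers, the tables hold RSEM expected counts, which can be fractional because reads matching more than 1 gene are shared out, and TPM, which the authors' pipeline corrected for length and library. FPKM was not used here. Groups follow the treatment label.

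Expected counts were rounded. filterByExpr (minimum count 10, minimum total 15) kept 11218 genes. TMM factors ranged from 0.941 to 1.033. A joint edgeR 4.0.16 fit (R 4.3.3) of the 4 groups, leaving 4 residual degrees of freedom, was tested two-sided by quasi-likelihood F tests, with Benjamini-Hochberg adjustment over all genes; adjusted p-values are edgeR's unless another tool is named. The SE is the absolute log2 fold change over the square root of F. The procedure was tested on simulated data. The labels do not say that A and B are separate cultures, so the spread behind the p-values may be only technical. Replicates differed by more than sampling noise (chi-square per degree of freedom 1.13 to 1.86). No permutation test was run, since with 2 libraries a group its exact p cannot go below 0.333.

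Alternatives were RLE or upper-quartile size factors, library sizes alone, no low-count filter, a replicate block, summed copies, removal of the MGA gene, each experiment fitted alone, each library left out, DESeq2 1.42.0, and limma-trend 3.58.1 on log2(TPM + 1) or log2(TPM + 0.1). The members and gene lists were chosen with earlier results of these data known. Values in every library are given for members called with MGA, members not called with siMYC, the 3 smallest siMYC p and the smallest MGA p of each step, the 3 smallest interaction p, the extremes of TPM and the members nearest the threshold with MGA. In other lists at most 3 genes per comparison are named. Promoters are RefSeq's on GRCh38.p14; no coordinate was converted between builds.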

Additional observations from a re-analysis of the deposited data

How the results depend on the processing

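Main values are followed by those of the alternatives. The number of members changed with MGA (7) was 12 with library sizes alone, 2 with DESeq2, 1 on log2(TPM + 1), 1 on log2(TPM + 0.1), and 3 to 7 with single libraries left out. The number changed with siMYC (54) was 34 and 35 on TPM (pseudocounts 1 and 0.1) and 52 to 55 with libraries left out. The number whose responses differ (44) was 25 with DESeq2, 14 and 13 on TPM, and 37 to 44 with libraries left out. The median log2 fold change with MGA (-0.16) was -0.29 with library sizes alone, -0.23 with upper-quartile factors and -0.19 to -0.12 with libraries left out. With siMYC (-1.25) it was -1.20 with RLE size factors, -1.18 with the MGA gene removed, -1.05 and -1.06 on TPM, where the median of all genes was 0.139, and -1.29 to -1.23 with libraries left out. The median interaction (1.09) was 1.05 with RLE, 0.97 with upper-quartile factors, 0.91 with library sizes alone (median of all genes -0.139), 1.0 with the MGA gene removed, 1.05 with DESeq2, 0.89 and 0.90 on TPM and 1.04 to 1.16 with libraries left out. Signs changed as follows, and the cause was not tested. With MGA, BOP1 (0.17) was -0.08 on both TPM scales and -0.02 (without Empty A) to 0.37 with libraries left out, and WDR12 (-0.59) was 0.12 on both. GRWD1 (0.01) was -0.06 with upper-quartile factors, -0.11 with library sizes alone, -0.18 without Empty A and -0.22 (without MGA A) to 0.22 over all left-out libraries, and NOP2 (0.02) was -0.06, -0.11, -0.12 and -0.08 in the same settings, 0.16 at most over the left-out libraries and 0.23 on TPM. WDR43 (0.03) was -0.05 with upper-quartile factors, -0.10 with library sizes alone, -0.05 (without Empty B) to 0.10 with libraries left out and 0.64 on TPM. With siMYC, SDAD1 (-0.25) was -0.47 to 0.04 (without siNC B). The interaction of IMP3 (0.18) was -0.02 on both TPM scales, that of NCL (0.49) -0.24 and -0.25, and that of WDR12 (0.25) -0.02 (without MGA B) to 0.53. With the replicate letter as a block, 7, 55 and 45 members were called with MGA, with siMYC and for the interaction. The deviations of same-lettered libraries correlated at -0.002 in the overexpression and 0.254 in the siRNA experiment over 6527 genes. The main fit did not take the letters as pairs in either experiment, also not in the siRNA experiment, where the deviations were correlated. With a library left out, its group's lone sample is assumed to vary like the other groups. Members lower with MGA had smaller standard errors than the others (median 0.11 against 0.18).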
